A study of Mus musculus with 14 samples.

Results

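The type 2 vomeronasal receptor genes (Vmn2r) were followed through 2 RNA-seq experiments on mouse olfactory epithelium. The family was taken as every gene symbol made of Vmn2r and a number that is listed in both tables of normalized counts, which gave 125 of 51211 symbols. In each experiment 122 of the 125 genes were above 0 in at least 1 mouse. A mean of at least 10, the minimum for testing, was reached by 59 genes in the Kir2.1 experiment and by 74 in the PEA experiment.

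Vmn2r genes encode receptors of a G protein-coupled class with a large extracellular domain that binds peptides and proteins such as pheromones and signals from predators. They are made in the basal layer of sensory neurons of the vomeronasal organ, which use the G protein subunit Gnao1 and the channel Trpc2, while the apical layer makes type 1 receptors (Vmn1r) with Gnai2. A basal neuron typically makes 1 specific Vmn2r receptor together with a broadly expressed receptor of family C (Vmn2r1 to Vmn2r7). The vomeronasal organ lies at the base of the nasal septum, apart from the main olfactory epithelium.

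All 14 mice were at postnatal day 5, and whole olfactory epithelia were taken from individual pups. The Kir2.1 experiment set 3 mice of a genotype that joins OMP-IRES-tTA and the allele tetO-Kir2.1-IRES-tauLacZ, in which the potassium channel Kir2.1 silences neurons, beside 3 controls of genotype OMP-IRES-tTA het. The PEA experiment set 4 wild type pups exposed to 2-phenylethylamine (PEA), an aversive odor, from day 0 to day 5 beside 4 unexposed wild type pups. Every label gives C57BL/6, whereas the methods of the study name CD-1 for the PEA pups, and the Kir2.1 mice carry the label Kir2.1-Off although they were pups. The tTA is driven from the Omp locus, which is active in mature neurons of the main olfactory epithelium and of the vomeronasal organ alike, so Kir2.1 was not restricted to main olfactory neurons.

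The 8 markers of main olfactory neurons (Cnga2, Gnal, Adcy3, Ano2, Cnga4, Cngb1, Rtp1 and Rtp2) passed the minimum in both experiments. Their summed value lay between 83592 and 94914 in controls and between 63317 and 74863 in Kir2.1 mice, and between 22201 and 26142 and between 20505 and 23568 in PEA control and exposed mice, so the labelled tissue was present in every mouse. Over all genes, the deposited values came to between 33049111 and 34198478 per mouse in the Kir2.1 experiment and between 11476120 and 12467331 in the PEA experiment. The 2 tables were scaled apart, and levels are therefore compared only within an experiment.

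Many Vmn2r genes are near copies of each other, and the sequences show how little there is to tell them apart. Vmn2r40 (GRCm38 chromosome 7, 8906772 to 8931435, minus strand) and Vmn2r41 (8136950 to 8161654, minus strand) differed at 6 of 2556 coding bases, the closest pair of the family. Their stretch of 90 coding bases with the most differences, bases 2053 to 2142 counted from the start codon, reads as follows, with the 2 differing bases in capitals.
Vmn2r40: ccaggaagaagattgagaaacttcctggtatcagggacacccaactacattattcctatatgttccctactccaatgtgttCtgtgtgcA
Vmn2r41: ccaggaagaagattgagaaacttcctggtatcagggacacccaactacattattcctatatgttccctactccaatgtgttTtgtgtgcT
Vmn2r42 (chromosome 7, 8182372 to 8200320, minus strand) and Vmn2r49 (9976245 to 9992257, minus strand), which the results below turn on, differed at 22 of 2556 coding bases. Coding bases 1962 to 2051 held 4 of these differences, again in capitals.
Vmn2r42: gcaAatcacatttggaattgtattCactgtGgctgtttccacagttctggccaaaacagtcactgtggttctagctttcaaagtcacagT
Vmn2r49: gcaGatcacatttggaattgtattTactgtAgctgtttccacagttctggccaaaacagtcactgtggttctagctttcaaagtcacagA

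The likeness of Vmn2r42 and Vmn2r49 went on upstream of the gene. The 132 bases before the GENCODE vM21 start of each, chr7:8200321-8200452 and chr7:9992258-9992389 on the minus strand (GRCm38.p6, RefSeq), are shown because both genes moved with the family. Capitals mark the longest run that both hold, 91 bases.
Vmn2r42: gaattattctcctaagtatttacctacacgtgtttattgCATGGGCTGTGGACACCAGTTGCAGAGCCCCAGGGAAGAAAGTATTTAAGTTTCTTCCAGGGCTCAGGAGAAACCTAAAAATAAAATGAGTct
Vmn2r49: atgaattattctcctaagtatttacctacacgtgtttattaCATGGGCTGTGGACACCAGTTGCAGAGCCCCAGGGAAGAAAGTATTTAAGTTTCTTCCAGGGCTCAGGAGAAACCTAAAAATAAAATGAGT
The window of Vmn2r20 is shown as a second kind, from a gene that was above 14 in every mouse of both experiments. It is chr6:123418117-123418311 on the minus strand, and capitals mark TATAAA (read on the other strand) and TAATTA.
Vmn2r20: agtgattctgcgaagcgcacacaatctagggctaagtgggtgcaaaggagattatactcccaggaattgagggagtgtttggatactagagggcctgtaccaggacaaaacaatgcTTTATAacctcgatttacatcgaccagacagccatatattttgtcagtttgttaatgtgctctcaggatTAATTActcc
Letters were searched on both strands in the 250 bases upstream of the RefSeq start, for 116 windows of 115 members and for all 32851 windows. TAATTA was held by 19 of the 116 member windows (16.4%) and by 4.84% of all windows. TATAAA was held by 25 (21.6%) against 12.4%, GCCNNNGGC by 8 (6.90%) against 13.7%, and the palindromic Ebf factor consensus by 0 against 0.779%. The member windows had a median GC content of 38.6% and all windows one of 52.4%, and the part of base composition in these shares was not tested. RefSeq and GENCODE place many starts differently, since 103 of the 116 windows overlapped exons that GENCODE vM21 gives to the same gene.

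The summed value of the family differed more among the controls than between the group means. In the Kir2.1 experiment the 125 genes summed to 6914, 1333 and 1044 in control mice 1 to 3 and to 1130, 1098 and 1072 in Kir2.1 mice 1 to 3. Control 1 stood apart, and all 3 Kir2.1 mice lay between the values of control 2 and control 3. The group means were 3097 ± 3309 (SD, n = 3) for controls and 1100 ± 29.4 (SD, n = 3) for Kir2.1 mice, a log2 ratio of -1.49 that became -0.11 without control 1.

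In the PEA experiment the sums were 6414, 2988, 1704 and 315 in controls 1 to 4 and 4693, 353, 321 and 299 in exposed mice 1 to 4. Exposed 1 lay above 3 of the 4 controls and control 4 lay below 3 of the 4 exposed mice, so the groups overlapped. The means were 2855 ± 2612 (SD, n = 4) for controls and 1416 ± 2185 (SD, n = 4) for exposed mice. The log2 ratio was -1.01, and it was -3.14 without exposed 1 and -0.24 without control 1.

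**Figure D1:**
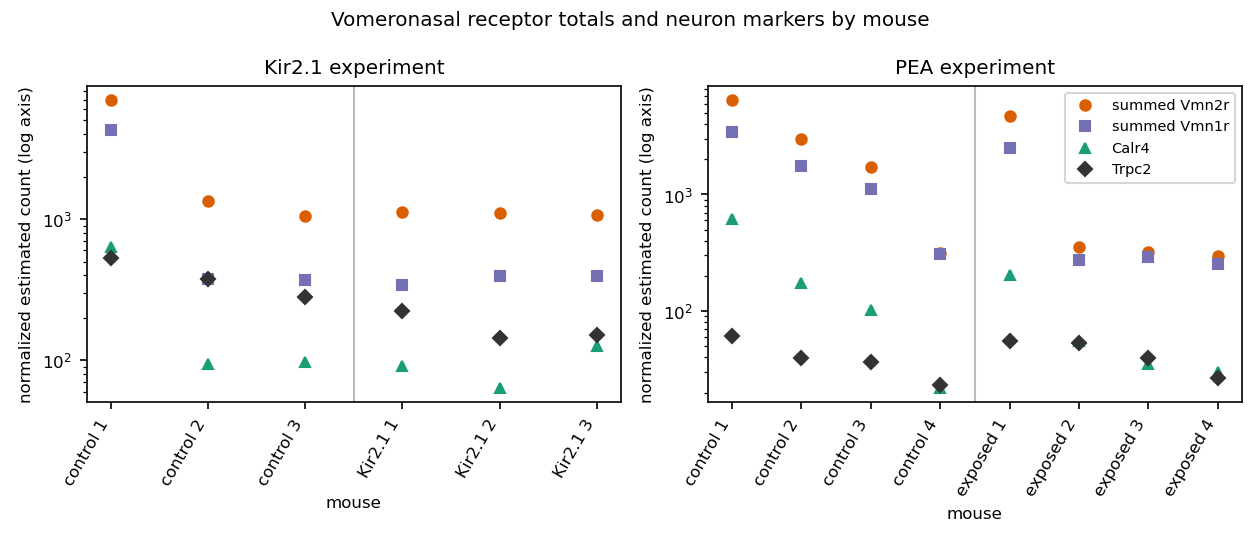
Summed Vmn2r value (circles), summed Vmn1r value (squares), Calr4 (triangles) and Trpc2 (diamonds) in every mouse, as normalized estimated counts on a log axis, with a line between control and treated mice in each experiment. The Vmn2r sum of 6914 in control 1 stands above all other mice of the Kir2.1 experiment, and in the PEA experiment control 1 (6414) and exposed 1 (4693) are the highest.

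Some other genes of vomeronasal neurons were high in the same mice as the family, and some were not. The 214 Vmn1r genes summed to 4272 in control 1 and to between 342 and 397 in the other mice of the Kir2.1 experiment, and to 3418, 1770, 1106 and 306 in PEA controls 1 to 4 and 2483, 276, 290 and 252 in the exposed group. Both receptor families were thus highest in the same mice. The Vmn2r sum was 1.62 times the Vmn1r sum in control 1 and 2.70 to 3.54 times in the other mice of that experiment, and 1.03 to 1.89 times in the PEA mice. In the Kir2.1 experiment Vmn2r97 made up 8.93% of the Vmn2r sum in control 1 and 36.3 to 48.7% in the other mice. Without this gene the sums were 6297 and between 579 and 696, beside the Vmn1r sums of 4272 and between 342 and 397.

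Calr4, a chaperone of vomeronasal neurons, was at 638 in control 1 and between 63.9 and 126 in the other mice of the Kir2.1 experiment. Among PEA mice it was at 616, 175, 102 and 22.0 in controls 1 to 4 and at 203, 55.4, 34.9 and 29.8 in exposed mice 1 to 4. Calr4 was thus highest in the control mouse with the highest Vmn2r sum in both experiments. Tfap2e, a transcription factor that sets the basal fate, was at 98.4 in control 1 and at 1.97 or less in the other mice of that experiment. It was at 19.5, 9.36, 4.80 and 0.603 in PEA controls 1 to 4 and at 9.33, 0, 0 and 0.772 in exposed mice 1 to 4, below the minimum mean for a test.

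Of the 4 genes listed for both layers, Trpc2, Gng8 and Omp varied less between mice, as a ratio, than Calr4 and the receptor sums. Trpc2, the channel of both layers, was at 528, 376 and 283 in controls 1 to 3 and at 225, 145 and 152 in Kir2.1 mice, so the groups did not overlap (-1.16 on the log2 scale with an SE of 0.26, and limma gave a Benjamini-Hochberg adjusted p of 0.173). Among PEA mice it was at 61.6, 39.5, 36.5 and 23.2 in controls 1 to 4 and at 55.2, 53.0, 39.4 and 26.5 in exposed mice 1 to 4. Its range was far narrower than that of the Vmn2r sum. Control 1 was still its highest mouse in both experiments, and exposed 1 came second among the PEA mice.

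Gng8, a G protein gamma subunit, was between 2503 and 2676 in controls and between 2401 and 2917 in Kir2.1 mice (0.02 on the log2 scale with an SE of 0.09). Its PEA controls were at 107, 151, 77.0 and 171 and the exposed mice at 186, 233, 153 and 190, with overlap (0.63 on the log2 scale with an SE of 0.24, and limma gave a Benjamini-Hochberg adjusted p of 0.270). Omp, the olfactory marker protein of mature neurons of both tissues, was at 31936, 31853 and 36226 in controls and at 21062, 21452 and 23516 in Kir2.1 mice, a called decrease (-0.60 on the log2 scale with an SE of 0.08, and limma gave a Benjamini-Hochberg adjusted p of 0.0466). In the PEA experiment Omp was between 6087 and 7326 in controls and between 7510 and 10082 in exposed mice, without overlap (0.31, SE 0.11, limma adjusted p of 0.252). For none of Trpc2, Gng8 and Omp did control 1 stand apart as it did for the Vmn2r sum. Whole tissue does not show which cells made the RNA of these 3 genes, and the part of cells outside the vomeronasal organ was not tested.

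Some markers of other cells also separated the groups of the Kir2.1 experiment, and others did not. The sum of the 8 main olfactory neuron markers, given above, did not overlap between controls and Kir2.1 mice, with a median log2 fold change of -0.41 and 0 of 8 called (limma adjusted p-values from 0.0531 to 0.400). The 3 red blood cell markers summed to between 5947 and 10654 in controls and between 11321 and 17281 in Kir2.1 mice, with a median of 0.88 and 0 of 3 called. The part of these shifts in the lower Trpc2 and Omp values of Kir2.1 mice, and in the Vmn2r values, was not tested. PEA mice overlapped in both sums, with medians of -0.07 and 0.13. The summed markers of sustentacular cells (Cyp2g1, Cyp1a2, Ermn and Ugt2a1) overlapped between the groups of both experiments. So did those of respiratory and ciliated epithelium (Foxj1, Dnah5, Bpifa1 and Reg3g) and of the olfactory bulb (Eomes, Tbx21 and Slc17a7).

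Of the 4 apical markers, which other cells also make, 1 was called lower in Kir2.1 mice (Kirrel2, -1.75 with an SE of 0.10 and a limma adjusted p of 0.00128) and 0 were called in the PEA experiment. Of the 14 basal markers, 6 were tested in each experiment and none was called, and H2-M11 was listed at 0 in every PEA mouse. Every H2-M gene among them was highest in control 1 of the Kir2.1 experiment. In the PEA experiment every H2-M gene above 0 was highest in control 1. Most of these H2-M genes were below the minimum mean. Gnao1, Robo2 and Kirrel3 were highest in other mice of both experiments. The 14 basal markers summed to between 19324 and 20754 in controls and 17348 and 23632 in Kir2.1 mice. It summed to between 4387 and 5021 and between 3725 and 4288 in PEA control and exposed mice, without overlap. Most of the sum came from genes such as Gnao1, Robo2 and B2m that other cells also make.

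Markers of tissue around the vomeronasal organ also differed between mice. Lcn3, a lipocalin of vomeronasal glands, was at 1453, 15.4 and 902 in controls 1 to 3 and between 487 and 936 in Kir2.1 mice, and between 584 and 1865 in the PEA mice. The 4 cartilage and bone markers summed to between 3594 and 9527 in controls and 7171 and 7584 in Kir2.1 mice, and to between 1098 and 2515 and between 782 and 932 in PEA control and exposed mice. The PEA groups thus did not overlap in this sum. The highest values stood on Ibsp, at 7346 in control 3 of the Kir2.1 experiment and at 1765 in PEA control 1, against 493 or less in the other PEA mice. The part of dissection or cell number in the Vmn2r values was not tested, and fewer neurons of a type and less RNA per neuron cannot be told apart in whole tissue.

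The pattern of the sums ran through nearly the whole family. In the Kir2.1 experiment control 1 was the highest mouse for 116 of the 122 genes above 0, and 31 genes were listed at 0 in every mouse but control 1. The number of genes at 10 or more was 106, 23 and 21 in controls 1 to 3 and 16, 18 and 22 in Kir2.1 mice 1 to 3. PEA control 1 was highest for 87 genes, exposed 1 for 31, and controls 2 and 3 for 2 each.

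Genes at 10 or more numbered 106, 81, 65 and 8 in PEA controls 1 to 4 and 94, 8, 10 and 10 in exposed mice 1 to 4. Only 11 genes were at 10 or more in every mouse of the Kir2.1 experiment, and 4 in every mouse of the PEA experiment.

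**Figure D2:**
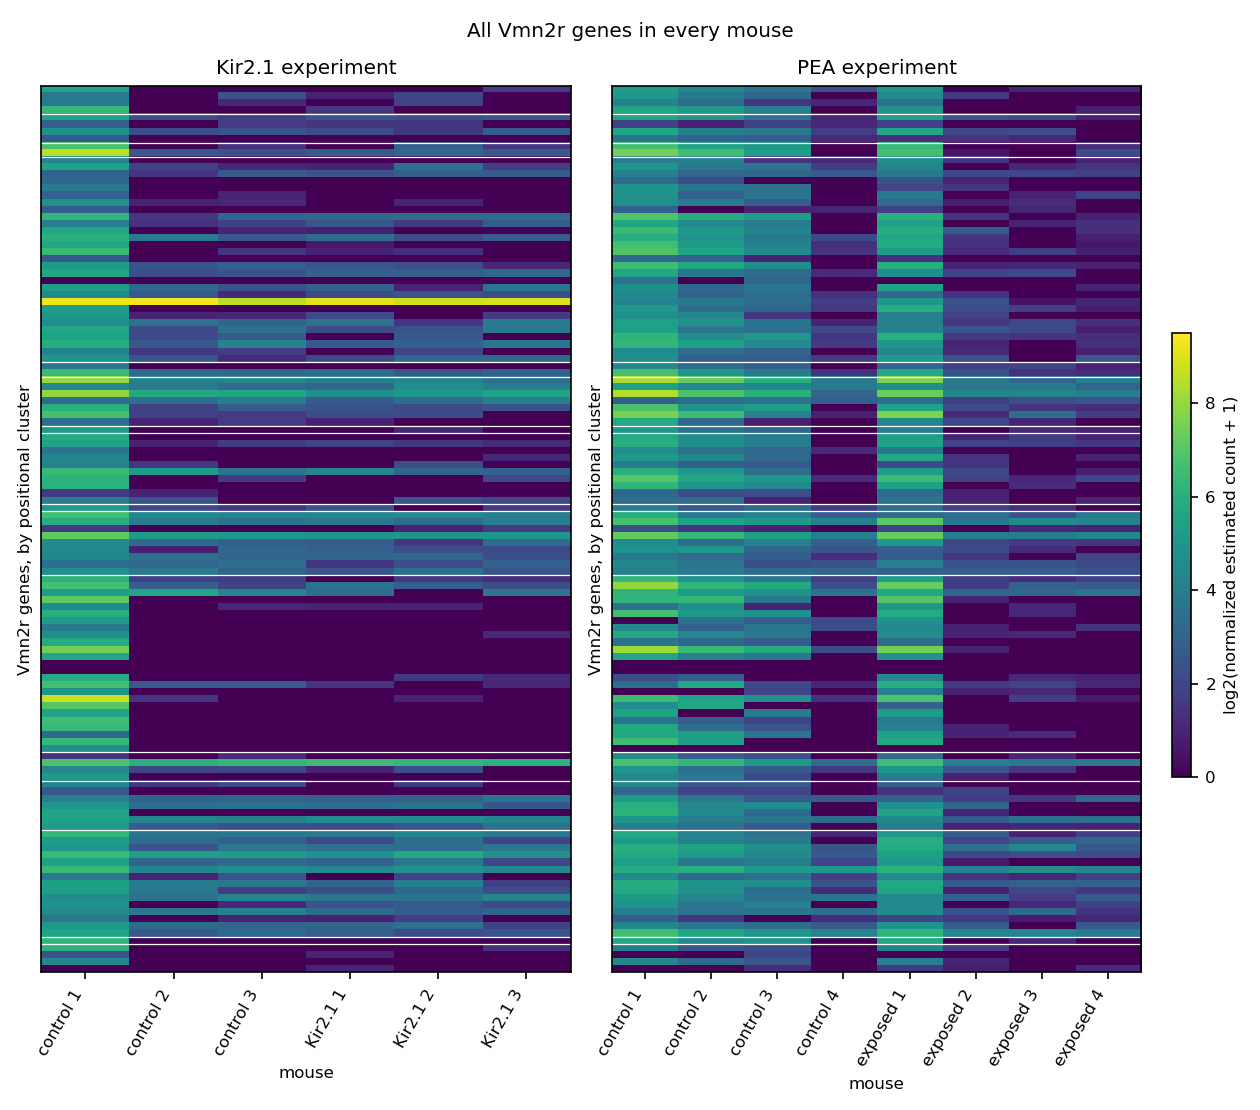
All 125 Vmn2r genes (rows, ordered by positional cluster, white lines between clusters, genes without a position last) in every mouse (columns), colored by log2(normalized estimated count + 1). Control 1 is bright for most rows on the left, and PEA controls 1 to 3 and exposed 1 on the right, with Vmn2r97 the single bright row across all mice of the Kir2.1 experiment.

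No Vmn2r gene passed the test between Kir2.1 and control mice. Of the 59 genes tested by limma on log2(value + 1), 0 had a Benjamini-Hochberg adjusted p under 0.05, while 0.353% of all 19807 genes tested did. Without adjustment 3 genes had p under 0.05, all lower in Kir2.1 mice, where 11.1% of all genes tested did. The lowest adjusted p of the family was 0.369. The mean log2 value was lower in Kir2.1 mice for 58 of the 59 genes, and the median log2 fold change was -1.15, against 0.0056 over all genes tested.

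That direction rested on 1 mouse. Without control 1, 19 genes reached the minimum mean, of which 8 were higher and 11 lower in Kir2.1 mice, with a median of -0.07 and again 0 called and 0 of unadjusted p under 0.05. Leaving out any other single mouse gave 1 to 9 genes of unadjusted p under 0.05, with the 9, of 66 tested, without control 3. The share of tested Vmn2r genes with such a p was slightly above that of all genes tested without control 3. It was below that of all genes tested when any other single mouse was left out. Of the 59 genes, 9 were listed at 0 in all 3 Kir2.1 mice, and the median over the other 50 was -1.06.

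The 3 genes with an unadjusted p under 0.05 were Vmn2r70, Vmn2r44 and Vmn2r29. Vmn2r70 (chromosome 7, 85548407 to 85569192) was at 21.6, 12.4 and 16.9 in controls and at 9.05, 5.40 and 7.13 in Kir2.1 mice, without overlap (-1.13 on the log2 scale with an SE of 0.41, and limma gave a Benjamini-Hochberg adjusted p of 0.369). Vmn2r44 was at 96.9, 5.32 and 5.36 in controls and at 1.80, 0 and 1.13 in Kir2.1 mice (-3.12 on the log2 scale with an SE of 1.15, and limma gave a Benjamini-Hochberg adjusted p of 0.373). Vmn2r29 was at 36.6, 46.8 and 19.6 in controls and at 9.48, 0 and 12.5 in Kir2.1 mice (-2.68 on the log2 scale with an SE of 0.99, and limma gave a Benjamini-Hochberg adjusted p of 0.376).

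All 3 were lower in every Kir2.1 mouse than in any control, and control 1 was the highest mouse for Vmn2r70 and Vmn2r44 but not for Vmn2r29. The exons of Vmn2r29 share 2228 bases on the same strand with Gm45844, so reads of these genes cannot be told apart there. Groups did not overlap, with Kir2.1 mice lower, for 6 of the 59 genes (Vmn2r2, Vmn2r20, Vmn2r28, Vmn2r29, Vmn2r44 and Vmn2r70), or 10.17%, where 9.04% of all genes tested did so. They did not overlap with Kir2.1 mice higher for 0 genes, where 7.26% of all genes tested did.

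No Vmn2r gene passed the test between PEA-exposed and control mice either. Of 74 genes tested, 0 were called by limma at a Benjamini-Hochberg adjusted p of 0.05, against 0.179% of all 17322 genes tested. One gene, that is 1 of 74, had an unadjusted p under 0.05, where 15% of all genes tested did. The mean log2 value was lower in exposed mice for 73 of 74 genes, with Vmn2r77 the exception (0.16, SE 1.13), and the median was -1.46, against -0.02 over all genes tested.

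The groups overlapped for every Vmn2r gene tested in the PEA experiment. They were apart with exposed mice lower for 0 genes, where 3.86% of all genes tested were, and with exposed mice higher for 0, where 5.46% were. The median log2 fold change was -2.66 without exposed 1, -2.44 without control 4 and -0.85 without control 1, with 0 genes called each time. The number with an unadjusted p under 0.05 also hung on single mice. It rose to 44 of 77 genes tested without control 4 and to 41 of 61 without exposed 1, all lower in exposed mice, where 16.9% and 15.5% of all genes tested had such a p. It was 0 or 1 when any other single mouse was left out, where 11.1 to 15.4% of all genes tested had such a p.

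The gene with the unadjusted p under 0.05 was Vmn2r23 (chromosome 6, 123702670 to 123747657). It was at 27.6, 31.5, 7.46 and 4.47 in controls 1 to 4 and at 6.36, 3.65, 1.25 and 0 in the exposed mice in turn. The highest exposed mouse lay above the lowest control (-2.28 on the log2 scale with an SE of 0.79, and limma gave a Benjamini-Hochberg adjusted p of 0.228). Exposed 1, which was high for most of the family, was below control 3 for Vmn2r23.

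**Figure D3:**
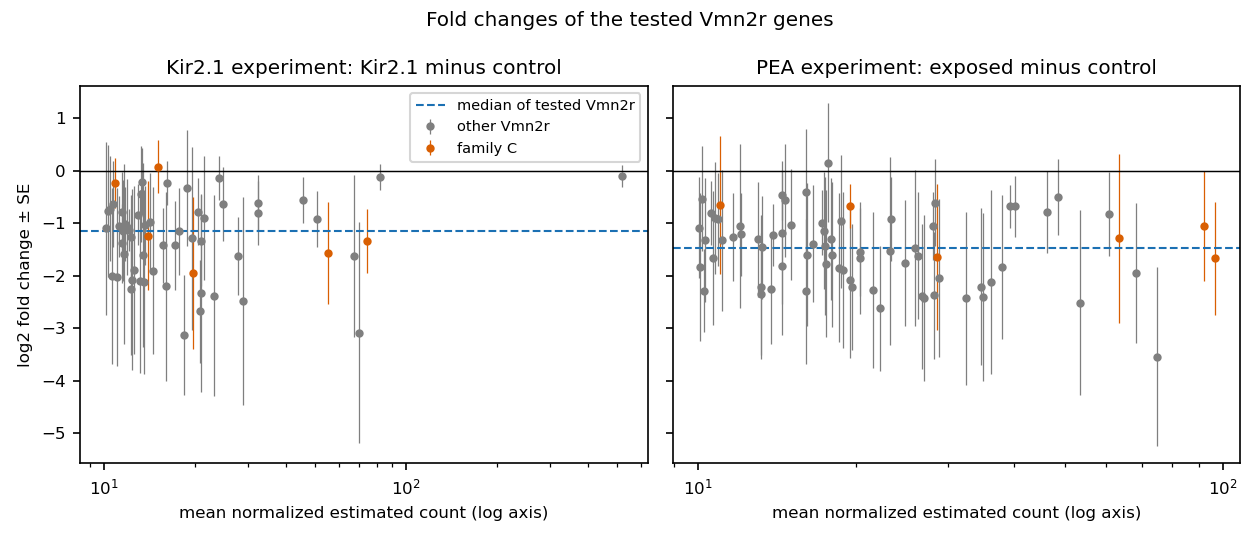
Log2 fold change ± SE of each tested Vmn2r gene against its mean normalized estimated count (log axis), 59 genes for Kir2.1 minus control on the left and 74 for PEA-exposed minus control on the right, with family C in orange and the median of the tested genes as a dashed line. The medians lie at -1.15 and -1.46, and no gene passed an adjusted p of 0.05.

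The 5 genes of largest fold change in the Kir2.1 experiment were Vmn2r44, Vmn2r42, Vmn2r29, Vmn2r49 and Vmn2r32, of which Vmn2r44 and Vmn2r29 are given above. Vmn2r29 was listed at 0 in 1 Kir2.1 mouse and at 9.48 or more in the other mice, whereas the other 4 genes were at 5.36 or less in every mouse but control 1. Vmn2r42 was at 417 in control 1, at 1.74 and 0 in controls 2 and 3, and at 0, 0.889 and 0 in Kir2.1 mice (-3.08 on the log2 scale with an SE of 2.1, and limma gave a Benjamini-Hochberg adjusted p of 0.682). Vmn2r49 was at 172 and Vmn2r32 at 139 in control 1, and both were listed at 0 in the other mice of the Kir2.1 experiment. These last 3 genes were seen almost wholly in 1 control mouse, and no fold is given for the genes listed at 0.

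After PEA exposure Vmn2r49 had the largest fold change. It was at 272, 86.0, 57.1 and 3.47 in controls 1 to 4 and at 179, 0.868, 0 and 0 in exposed mice 1 to 4 (-3.54 on the log2 scale with an SE of 1.70, and limma gave a Benjamini-Hochberg adjusted p of 0.362). Vmn2r42 was at 89.8, 45.0, 25.7 and 1.46 in controls and at 112, 0, 2.35 and 0.605 in exposed mice. Both were high in controls 1 to 3 and exposed 1 and near 0 in the rest.

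Vmn2r115, Vmn2r89, Vmn2r88 and Vmn2r38 followed Vmn2r49 in size, with log2 fold changes between -2.62 and -2.42 and limma adjusted p-values between 0.340 and 0.535. Vmn2r89 was at 183, 97.3, 39.8 and 0 in controls and at 104, 0.507, 0 and 3.36 in exposed mice, the same mice high again. In the Kir2.1 experiment it was at 375 in control 1 and between 4.08 and 8.37 in the other mice.

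Family C, the receptors shared by basal neurons, made up 5.56 to 10.18% of the summed Vmn2r value in the Kir2.1 experiment and 12.7 to 17.9% in the PEA experiment. Vmn2r97 lowered the Kir2.1 shares, at 8.93% of that sum in control 1 and 36.3 to 48.7% in the other mice. The 7 genes of family C lie together on chromosome 3 between 64081547 and 64844765. Their predicted proteins were 76.9 to 97.6% identical to each other and 22.1 to 33.6% identical to those of the other members. Among PEA mice their share stayed within that range while the family total ran from 299 to 6414.

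Vmn2r2 (64115278 to 64141928, minus strand) and Vmn2r1 (64081547 to 64109484, plus strand) had the highest values of family C. Vmn2r2 was at 244, 53.4 and 46.7 in controls 1 to 3 and at 25.9, 32.7 and 42.9 in Kir2.1 mice, without overlap (-1.33 on the log2 scale with an SE of 0.61, and limma gave a Benjamini-Hochberg adjusted p of 0.492). The PEA controls were at 338, 112, 65.1 and 7.52 and the exposed mice at 158, 20.2, 19.5 and 15.7, where control 4 was the lowest of all 8 mice. Vmn2r1 was at 251 in control 1 and between 10.23 and 19.6 in the other mice of the Kir2.1 experiment.

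The other 5 genes of family C were not alike. Vmn2r3 was at 19.8, 13.9 and 8.97 in controls and at 7.97, 24.9 and 14.8 in Kir2.1 mice, and was the 1 tested Vmn2r gene with a higher mean log2 value in Kir2.1 mice (0.08, SE 0.51). Vmn2r5 was between 9.39 and 14.9 in controls and between 5.57 and 15.5 in Kir2.1 mice. For neither of them was control 1 the highest mouse.

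Vmn2r6 and Vmn2r7 instead followed the family. Vmn2r7 was at 106 in control 1 and at 3.52 or less in the other mice of the Kir2.1 experiment, whereas the PEA controls were at 188, 91.7, 17.6 and 0.779 and the exposed mice at 195, 1.23, 10.28 and 2.33. Vmn2r4 was at 10.38 in control 1 and at 2.16 or less in the others, below the minimum mean. None of the family C genes was called by limma in either experiment.

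Vmn2r97 (chromosome 17, 18914300 to 18958087) went against the pattern of its family in the Kir2.1 experiment. It was at 617, 638 and 379 in controls 1 to 3 and at 551, 444 and 491 in the Kir2.1 group, which differed by -0.10 on the log2 scale (SE 0.21, limma Benjamini-Hochberg adjusted p of 0.917). It was high in every mouse and its groups overlapped. It made up 8.93% of the family's sum in control 1 and 36.3 to 48.7% in the other mice, and without it the log2 ratio of the sums was -2.08.

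Among PEA mice Vmn2r97 was no more than an ordinary member, at 18.4, 13.4, 9.73 and 2.34 in controls and at 30.5, 4.55, 0.392 and 1.01 in exposed mice. The libraries of the 2 experiments were made differently (poly-A selected against ribosomal RNA depleted) and scaled apart. The part of library type in this gene's values was not tested. Per kilobase of its 14819 annotated exonic bases, it had a mean of 35.1 in the Kir2.1 experiment, the highest of the family, against 14.1 for Vmn2r2, 12.7 for Vmn2r21 and 12.2 for Vmn2r42. Of the 31-base words of their transcripts, 76.7% are unique to Vmn2r97, 0.276% to Vmn2r21 and 22.7% to Vmn2r42.

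Per kilobase, the highest means of the PEA experiment were those of Vmn2r49 (27.9), Vmn2r2 (17.5) and Vmn2r1 (14.0), followed by Vmn2r30 (8.12), Vmn2r32 (8.07), Vmn2r38 (7.25), Vmn2r33 (7.17) and Vmn2r36 (7.05). The first of these stands on a short annotated model of 2677 bases. Of the 8, Vmn2r30, Vmn2r32, Vmn2r33, Vmn2r36 and Vmn2r38 lie beside Vmn2r49 in a cluster of 25 members on chromosome 7.

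**Figure D4:**
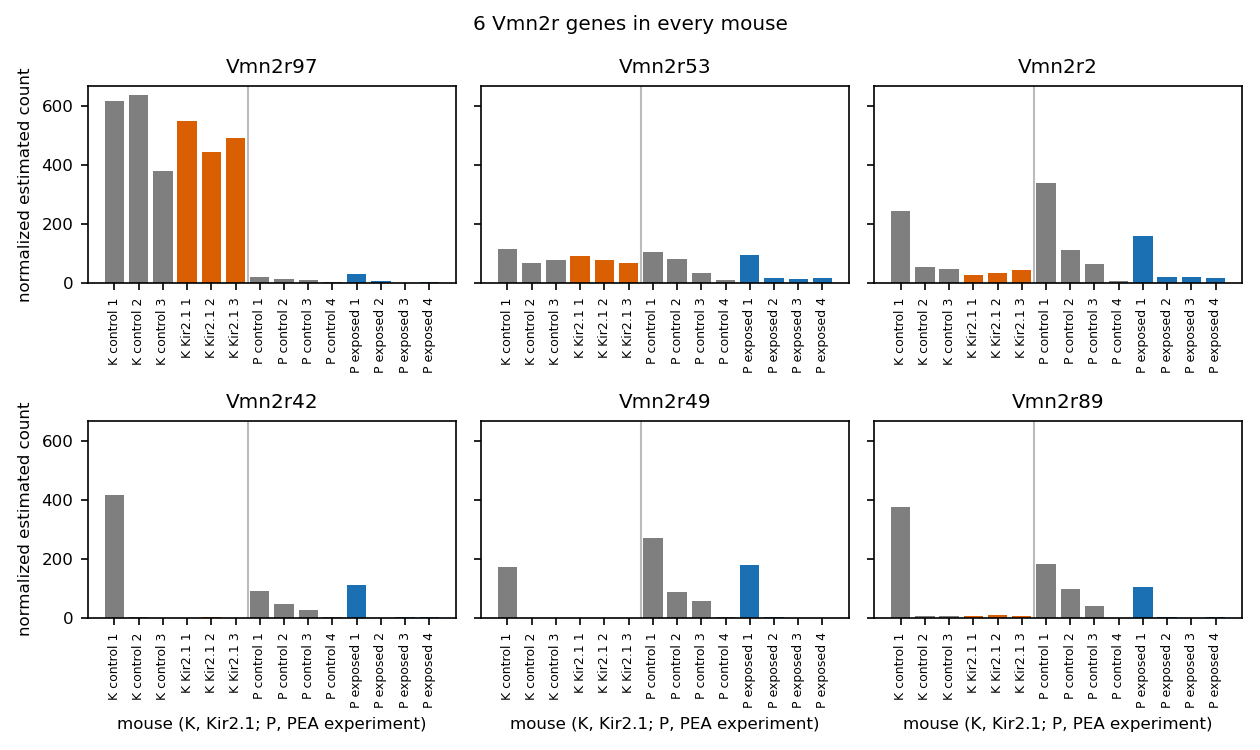
Normalized estimated counts of 6 Vmn2r genes in every mouse, 1 bar a mouse, with controls in gray, Kir2.1 mice in orange and PEA-exposed mice in blue, and a line between the experiments, whose scales are separate. Vmn2r97 lies between 379 and 638 in all mice of the Kir2.1 experiment, whereas Vmn2r42 and Vmn2r49 are seen there in control 1 almost alone.

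A few genes kept a level in every mouse. In the Kir2.1 experiment the 5 of highest lowest value were Vmn2r97, Vmn2r53, Vmn2r20, Vmn2r79 and Vmn2r2. Vmn2r53 (chromosome 7, 12562851 to 12608788) was at 114, 68.1 and 76.3 in controls and at 91.0, 77.5 and 66.2 in Kir2.1 mice, with overlap (-0.11 on the log2 scale with an SE of 0.25, and limma gave a Benjamini-Hochberg adjusted p of 0.925). Vmn2r20 was at 143, 39.5 and 32.5 in controls and at 29.6 in each of the Kir2.1 mice.

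In the PEA experiment the 5 were Vmn2r74, Vmn2r20, Vmn2r69, Vmn2r22 and Vmn2r53. Vmn2r74 was at 58.5, 61.4, 33.3 and 32.6 in controls and at 66.2, 17.3, 25.4 and 19.2 in exposed mice, the narrowest range of these 5. Vmn2r20 was at 144, 80.1, 41.7 and 16.2 in controls and at 152, 16.3, 14.99 and 20.4 in exposed mice. Exposed 1 was the highest mouse for both, and the groups overlapped.

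By position the family fell into 15 clusters on 9 chromosomes, counting a gap of over 2 Mb as a break, for the 121 genes with a position in GENCODE vM21. The clusters did not keep constant shares of the family's sum. The 25 genes of chromosome 7 from 5477255 to 10176573 (Vmn2r28 to Vmn2r52) made up 26.6% in control 1 and 1.06 to 4.69% in the other mice of the Kir2.1 experiment. PEA mice gave them 21.3, 22.4, 18.1 and 9.78% in controls 1 to 4 and 23.9, 5.94, 8.72 and 7.76% of the sum in the exposed group, mice 1 to 4.

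The 15 genes of chromosome 7 from 84935565 to 87044941 (Vmn2r65 to Vmn2r79) ran the other way in the PEA experiment. They made up 9.88, 11.9, 14.4 and 32.2% of the sum in controls 1 to 4 and 12.2, 24.3, 30.8 and 26.8% in exposed mice 1 to 4. Their share was highest where the family's sum was low. The single member on the X chromosome, Vmn2r121, was at 74.1 in control 1 and at 0 in every other mouse of the Kir2.1 experiment.

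How well a value belongs to 1 gene differed across the family. The nearest other member was over 90% identical in predicted protein for 64 genes, and for 31 genes under 50% of the 31-base words of their transcripts were unique to them. The closest pairs were Vmn2r40 and Vmn2r41 (99.8%), Vmn2r33 and Vmn2r38 (99.2%), Vmn2r20 and Vmn2r21 (99.2%), Vmn2r30 and Vmn2r47 (99.2%), and Vmn2r31 and Vmn2r44 (99.0%). Values within such pairs, and those of Vmn2r49, Vmn2r42 and Vmn2r32, are uncertain, because the authors' estimates divide shared reads between the genes.

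The values of the closest pair did not keep 1 order over the mice. Vmn2r40 was at 45.1, 0, 14.3 and 0 in PEA controls 1 to 4 while Vmn2r41, printed beside it above, was at 24.5, 49.2, 0 and 0. Their order was reversed between controls 1 and 2, and the part of the division of reads in this was not tested. In the Kir2.1 experiment both were above 0 in control 1 only, at 45.7 and 126.

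Vmn2r47, of which 0% of the 31-base words are unique, was listed at 0 in all 14 mice, as was Vmn2r46. Vmn2r109 was listed at 0 throughout the Kir2.1 experiment and reached 11.3 in PEA control 1. Vmn2r35 was listed at 0 throughout the PEA experiment and was at 25.4 in control 1 of the Kir2.1 experiment.

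Genes outside the receptor families were ranked by how closely they followed the summed Vmn2r value over the 8 PEA mice, as the mean absolute difference of centered log2 values. The closest of 17196 genes were Zpld2, H2-M10.3, Gm36028, Calr4, Gm15987, Gm42791, Otop1, Slc5a11, Glt1d1 and Gm3972, at 0.303 to 0.858 against a median of 1.72. Gm3972 is not independent of the family, since 91.9% of the 31-base words of its transcripts are also in Vmn2r transcripts. Zpld2 has no entry of that name among the transcripts searched, and the other 8 genes shared 0.150% of their words or less. H2-M10.3, a class I gene made with Vmn2r receptors in basal neurons, was at 50.9, 23.2, 8.66 and 0.780 in controls 1 to 4 and at 19.2, 1.95, 1.04 and 0 in exposed mice 1 to 4. It was also highest in control 1 of the Kir2.1 experiment, at 28.5 against 3.08 or less in the other mice.

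Zpld2 was nearest to the family in the PEA mice and differed from it in the Kir2.1 experiment. It was at 1952, 1122 and 902 in controls 1 to 3 and at 434, 495 and 477 in Kir2.1 mice, without overlap (-1.42 on the log2 scale with an SE of 0.26, and limma gave a Benjamini-Hochberg adjusted p of 0.0989). Its controls 2 and 3 lay well above the Kir2.1 mice, which was not so for the Vmn2r sum.

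The 116 genes named as Vmn2r pseudogenes summed to 415 in control 1 and to between 17.8 and 29.8 in the other mice of the Kir2.1 experiment. PEA mice had sums of 670, 247, 147 and 20.5 in controls 1 to 4 and 572, 37.2, 28.1 and 30.4 in exposed mice 1 to 4. They were high in the mice where the Vmn2r sum was high, with 0 called of 2 and of 6 tested. The 5 formyl peptide receptor genes of vomeronasal neurons summed to 22.4 in control 1 and to 1.89 or less in the other mice of the Kir2.1 experiment. Their sums were 19.1, 8.99, 4.78 and 0.878 in PEA controls 1 to 4 and 13.1, 0, 1.13 and 0.918 in exposed mice 1 to 4. All 5 genes were too low to test.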

How the data were processed

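The authors made unstranded poly-A libraries for the Kir2.1 experiment and stranded, ribosomal RNA depleted libraries for the PEA experiment. Transcript counts were estimated by the authors with Salmon 1.3.0 on GRCm38, brought to genes by tximport, and scaled within each experiment with DESeq2 1.30.0. The deposited values are thus a normalized signal (estimated counts), one column a mouse. The methods describe a reverse-stranded setting for every library. Whole reads could not be recovered: at most 14.2% of values above 0 were whole multiples of the commonest low value, so library depth is known only roughly (about 32.5 to 35.4 M and 9.76 to 15.1 M reads, the sum over that value), and no count test was run.

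Values were tested as log2(value + 1), which understates changes of low genes, with limma 3.58.1 in R 4.3.3 (trend, Benjamini-Hochberg over all genes of mean 10 or more, threshold 0.05), after a trial on simulated data. Positions came from GENCODE vM21 (121 of 125 genes), upstream bases from RefSeq GRCm38.p6, and protein identity from translated annotated coding sequence. Genes named were family C, the 8 highest per kilobase, the 5 largest fold changes, the 5 of highest lowest value, genes at 0 in one experiment that reached 10 in the other, the 5 closest pairs and the 10 genes most like the family; the genes of unadjusted p under 0.05, those without overlap, Vmn2r77, Vmn2r121 and the printed sequences were added after the values were seen. The members, lists and tests were chosen with earlier results of these data known. Mice are separate animals, and p-values set the difference between groups against the spread between mice. The study placed the odor vial in the home cage of mother and pups. The labels give no litter or cage, so pups of the same litter could not be told apart from independent ones. Python 3.11.15, numpy 2.4.6, pandas 2.3.3 and matplotlib 3.10.9 were used.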

Additional observations from a re-analysis of the deposited data

Results flagged for a closer look

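The summed Vmn2r value of the 4 PEA-exposed mice was marked because 1 mouse lay far from the other 3: the gap between exposed 1 (4693) and the next mouse (353) was 0.988 of the range of the group. Chance would mark about 1 in 20 groups of normally distributed values in this way. The sums were taken without logs and their distribution was not tested, so that rate need not hold here. Gene by gene, the same rule marked the highest exposed mouse for 64 of the 74 tested Vmn2r genes and the highest control for 1 of 74. These genes are parts of the marked sum, and genes of 1 mouse are not independent. The share of all genes tested that this rule marks was not computed. The 4 controls ran from 315 to 6414 without such a gap. Groups of 3, as in the Kir2.1 experiment, were not examined for this.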

How the results depend on the processing

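No Vmn2r gene was called in either experiment under any of the 16 and 18 alternatives run. The lowest limma adjusted p of the family ranged from 0.234 to 0.748 in the Kir2.1 experiment and from 0.105 to 0.480 in the PEA experiment. The median log2 fold change was below 0 in 15 of 16 and in 17 of 18 alternatives. With Trpc2 as a covariate it was 1.35 in the Kir2.1 experiment, where Trpc2 itself separated the groups, and -1.88 in the PEA experiment. There 39 of 74 Vmn2r genes then had an unadjusted p under 0.05, all lower, against 1 without the covariate. Of all genes tested, 15.5% had such a p with it. With the summed Vmn1r value as a covariate, chosen after seeing the data, the median was -0.04 and 0.20. The log2 ratio of the sums lay between -1.91 and -0.11 in the Kir2.1 experiment and between -3.14 and -0.24 in the PEA experiment when single mice were left out. The causes were not tested.

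With a replicate block, pairing mice by number, 0 Vmn2r genes were called in either experiment, and 4 and 29 Vmn2r genes had an unadjusted p under 0.05, all lower, against 3 and 1 without it. As a share of the Vmn2r genes tested, the count with the block was below the share over all genes tested in the Kir2.1 experiment. In the PEA experiment it was above that share. The medians stayed at -1.15 and -1.46. The labels tie no number to a litter or day, and same-numbered mice had deviations from their group means that correlated by -0.06, -0.01 and 0.16, and at 0.13, -0.02, -0.05 and 0.10.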
